A study of Homo sapiens with 10 samples.

Results

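HEK293 cells, an established human embryonic kidney line, were fed 4-thiouridine (4SU) at 1 mM for 12 to 14 h without any ultraviolet crosslinking and were compared with cells that received neither 4SU nor crosslinking. The comparison was chosen by the labels alone and holds 4 of the 10 libraries of the series: fed A, fed B, untreated A and untreated B. All cells were grown in DMEM with fetal calf serum and antibiotics, and polyadenylated RNA was sequenced as short tags that were assigned to transcripts. Among the other libraries, 2 came from cells fed 4SU at the same dose and time and irradiated at 365 nm, 2 from cells irradiated at 254 nm without 4SU, and 1 each from cells given siRNA against GFP or HuR. The question the comparison answers is how long feeding with the nucleoside, before any crosslinking, alters messenger RNA levels in the cells used for photoactivatable-ribonucleoside crosslinking.

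4SU is a uridine analogue that cells take up, phosphorylate and place in new RNA in the position of uridine, where long-wave ultraviolet light can crosslink it to bound proteins. 2 well-described transcriptional programmes form the core of the results below. In the integrated stress response, kinases phosphorylate the translation factor eIF2alpha, translation of ATF4 rises, and ATF4 with its partners raises genes for amino acid uptake and synthesis, transfer RNA charging and stress signalling. In the sterol response, falling membrane cholesterol lets SCAP carry SREBP transcription factors to the Golgi for cleavage, the released domains raise genes of cholesterol and fatty acid synthesis, and INSIG proteins hold the complex back when sterol is plentiful.

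Library totals were 2289523 (fed A), 3053932 (fed B), 3099769 (untreated A) and 2396069 (untreated B) tags, so that 3 tags in 1 library correspond to 0.968 to 1.31 CPM, the usual tag share scaled by library total. Levels below are normalised CPM, in which that scale is further divided by a library factor (TMM) of 1.549, 1.755, 1.631 and 1.577 in the same order, so they are lower than plain shares of the library. Before any test, untreated A lay closer to the fed libraries than untreated B did. Across genes, Pearson's r of log CPM was 0.959 between the fed libraries and 0.931 between the untreated ones, while untreated A gave 0.919 and 0.927 with fed A and fed B, and untreated B gave 0.858 and 0.902. 6 of 10 markers of HEK293-like cells exceeded 3 CPM in all 4 libraries, with summed levels of 395.6 and 481.6 CPM in the fed and 564.3 and 651 CPM in the untreated cells. Some markers of hepatocytes (ALB, APOA1, SERPINA1), squamous epithelium (KRT5, KRT14, TP63), endothelium (CDH5) and lymphoid or erythroid cells (CD3E, HBB) were at 0 in all 4, as was the fibroblast gene DCN. Only 2 of 4 hepatocyte, 3 of 4 endothelial and 4 of 6 blood markers were among the deposited transcripts, and an absent one counts as 0. By contrast, 1 marker each of fibroblasts, blood cells and squamous epithelium exceeded 3 CPM in all 4 libraries. In such bulk libraries, fewer cells of a type and less RNA per cell cannot be told apart.

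Of 13731 genes with enough tags to test, 528 (3.85%) rose and 507 (3.69%) fell with 4SU (together 7.54%) at an adjusted p under 0.05 in edgeR's quasi-likelihood test, with Benjamini-Hochberg adjustment over all tested genes. The median gene differed by 0.02 on the log2 scale. Scaled by library totals alone, 432 genes were called higher and 236 lower. Increases were the steeper: the median size among genes that rose was 1.89 on the log2 scale, with 243 over 4-fold and 92 over 8-fold, against 1.35 among genes that fell, with 33 over 4-fold and 2 over 8-fold. Genes that rose also had fewer tags, with a median mean level of 8.59 CPM against 33.1 CPM for those that fell and 19.6 CPM for all tested. Their transcripts were shorter, with a median length of 2384.5 nucleotides against 3866 for those that fell and 2753 for all tested. Many calls rested on fed A: 174 of the 528 genes that rose and 49 of the 507 that fell kept the call without it, 258 and 181 without fed B, 441 and 480 without untreated A, and 277 and 178 without untreated B. In all 4 of these fits, 132 of the genes that rose and 32 of those that fell were called, and none of the called genes changed sign. Over all tested genes, both fed libraries lay above both untreated ones in 24.7% and below them in 24.3%, whether called or not. Among called genes the groups did not overlap in 526 of the 528 that rose and 506 of the 507 that fell. For a called gene, a statement below that the groups did not overlap therefore adds nothing to the call. The genes of largest change were also chosen for it.

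The largest increases among genes above the median level were seen in WNK4, KCND1 and AMH. WNK4 (NM_032387), a kinase that regulates ion transport, had 114 and 115 CPM in the fed and 3.98 and 13.04 CPM in the untreated libraries, a log2 difference of 3.78 ± 0.45 (SE, n = 2 libraries per group; edgeR, adjusted p = 3.62e-07). KCND1 (NM_004979), a voltage-gated potassium channel subunit, had 57.4 and 52.2 CPM against 3.59 and 4.53 CPM, a log2 difference of 3.75 ± 0.43 (edgeR, adjusted p = 1.77e-07). In both genes the fed libraries lay close together and far above either untreated one. AMH (NM_000479), anti-Müllerian hormone of the TGF-beta family, had 247 and 179 CPM against 24.5 and 13.04 CPM, a log2 difference of 3.49 ± 0.38 (edgeR, adjusted p = 1.08e-07). MROH6, CELSR3 (a cadherin of planar cell polarity) and NHSL1 (a regulator of actin at the cell edge) rose as well. The rule that chose these genes required both fed libraries above both untreated ones. MROH6 had 47.5 and 40.5 CPM against 7.57 and 6.12 CPM, a log2 difference of 2.67. CELSR3 had 51.5 and 53.7 CPM against 12.2 and 9.58 CPM, a log2 difference of 2.26, and NHSL1 had 64.0 and 67.3 CPM against 14.9 and 15.7 CPM, a log2 difference of 2.10. All 6 of these genes kept the call when any single library was left out. PPP1R10, which encodes a nuclear regulator of protein phosphatase 1, also rose (log2 difference 2.02, edgeR adjusted p = 0.00158) but its untreated libraries stood apart, at 12.6 and 51.4 CPM, against 113 and 144 CPM in the fed. EEF1A1 and P2RY11 also ranked among the 15 largest increases, with tags partly divided among transcripts. The plot of the largest changes by library shows these values together.

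**Figure D1:**
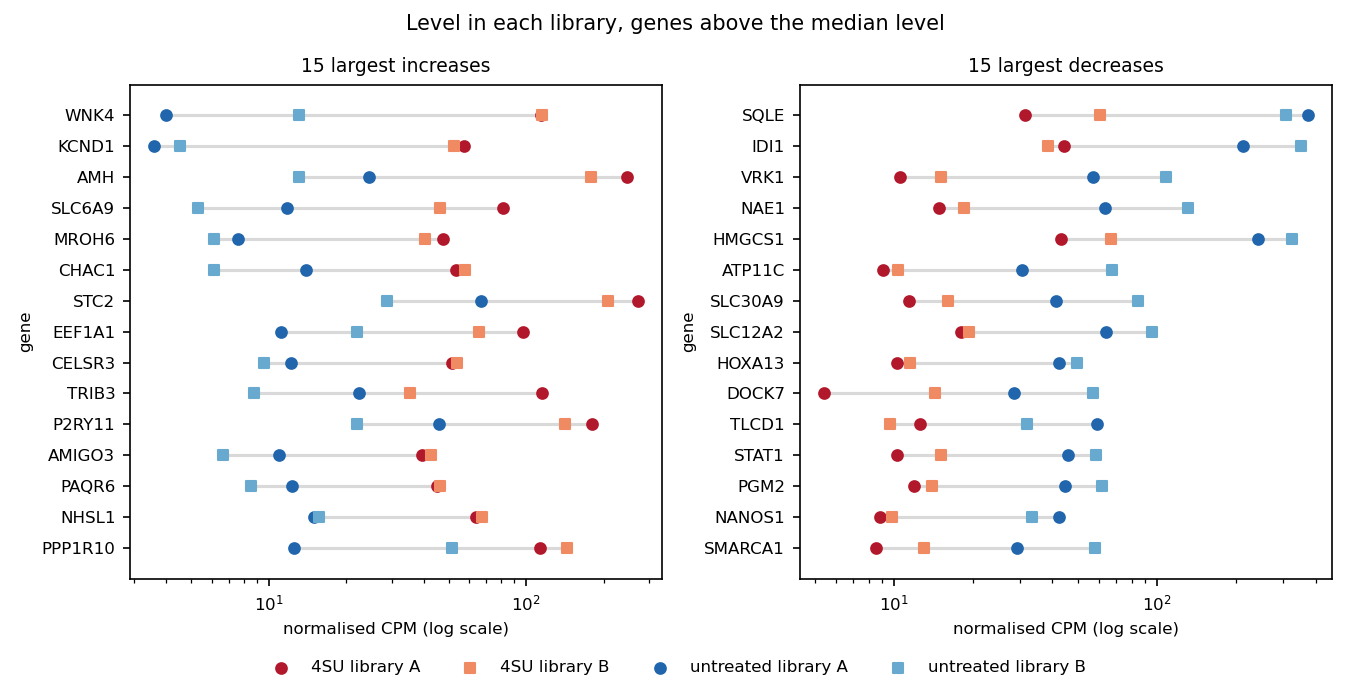
Normalised CPM (log scale, horizontal) of genes with the largest increases and decreases among called genes above the median level; each point is 1 library, in reds for the fed and blues for the untreated, with circles for A and squares for B, and the genes were chosen so that the groups do not overlap. WNK4 sits at 114 and 115 CPM in the fed and 3.98 and 13.04 CPM in the untreated libraries, while VRK1 sits at 10.5 and 15.1 CPM against 57.0 and 108 CPM.

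Several genes were nearly silent without 4SU, so their fold is a bound or a ratio of tags. COL20A1, a collagen chain, had 24 and 21 tags in fed A and fed B and none in either untreated library, which makes it at least 14.9-fold higher when the untreated group is set to a floor of 3 tags over both libraries. PYCARD, the adaptor of inflammasomes, had 40 and 87 tags against 1 and 0, a ratio of 126 with an exact 95% counting interval from 22.3 to 5029. SSC5D, a secreted scavenger-receptor protein, had 32 and 46 tags against 1 and 0, a ratio of 77.6 (interval 13.5 to 3104). In each of these genes both fed libraries held at least 21 tags, while the untreated group held at most 1. SELPLG, the ligand of P-selectin on leukocytes, had 42 and 69 tags against 1 and 2, a ratio of 36.8 (interval 12.3 to 181). Beside these leukocyte-associated genes, the blood markers CD3E and HBB were at 0 in all 4 libraries, and the summed level of that list was 22.75 and 21.1 CPM in the fed and 15.74 and 16.24 CPM in the untreated libraries, higher in both fed ones; its part in these changes was not tested.

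The stress and sterol lists, like all lists below, were chosen with earlier results of these data known. A share of a list set against the background is therefore a description and not a test. Of the integrated stress response list, 86 of 92 genes could be tested. 15 rose (background 3.85%) and 3 fell (background 3.69%), 52 had a positive difference, and the list median was 0.23 on the log2 scale against 0.02 for all tested genes. Of the increases, 6 were listed as stress effectors, 5 as transcription factors (with TRIB3, a pseudokinase), 3 as amino acid transporters and 1 as an enzyme of amino acid synthesis. The 3 decreases were aminoacyl-tRNA synthetases. The list median was 0.11 without fed A, 0.31 without fed B, 0.30 without untreated A and 0.22 without untreated B. Fewer of its genes were called higher without fed A and more without untreated A, as was so over all tested genes.

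Among the 12 genes listed as transcription factors of the response, the pseudokinase TRIB3 included, 5 rose (background 3.85%), and the median difference was 1.09. ATF4, the central activator, had 568 and 494 CPM in the fed and 207 and 260 CPM in the untreated libraries, a log2 difference of 1.19 ± 0.37 (SE; edgeR, adjusted p = 0.0363); part of its tags was divided among transcripts by the authors' counting, so the value is uncertain. TRIB3, a pseudokinase induced by ATF4 that dampens it in turn, had 115 and 35.4 CPM against 22.3 and 8.78 CPM, a log2 difference of 2.24 ± 0.44 (edgeR, adjusted p = 0.000715). Fed A was the higher of the pair in both genes, and the gap between fed libraries was much wider in TRIB3. DDIT3, which encodes the stress factor CHOP, had 55.5 and 29.02 CPM against 13.7 and 17.8 CPM, a log2 difference of 1.41 ± 0.37 (edgeR, adjusted p = 0.0132). CEBPB, a dimer partner of both ATF4 and CHOP, had 47.8 and 17.9 CPM against 12.8 and 5.59 CPM (log2 difference 1.80, edgeR adjusted p = 0.00687). Fed B and untreated A lay near each other in CEBPB, and fed A stood well above both. JDP2, a repressor of the AP-1 family, had 9.67 and 5.65 CPM against 2.99 and 1.60 CPM (log2 difference 1.66, edgeR adjusted p = 0.0415). CEBPG (log2 difference 1.00, adjusted p = 0.0571), NUPR1 (2.0, adjusted p = 0.0504), XBP1 (0.87, adjusted p = 0.125) and ATF3 (0.45, adjusted p = 0.494) did not pass the edgeR threshold. Without fed A none of the 5 was called, with edgeR adjusted p of 0.269 for ATF4, 0.208 for TRIB3, 0.436 for DDIT3, 0.487 for CEBPB and 0.507 for JDP2. ATF4 was also not called without fed B (adjusted p = 0.0804), untreated A (0.108) or untreated B (0.089), CEBPB not without untreated B (0.0655), and JDP2 not without fed B (0.0664) or untreated B (0.21).

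In the amino acid branch 3 transporters and 1 enzyme rose. The transporters were 3 of 12 transport genes (background 3.85%), with a list median of 0.49. SLC6A9, the glycine transporter GLYT1, had 81.0 and 46.2 CPM in the fed and 11.8 and 5.32 CPM in the untreated libraries, the largest increase of the response list at 2.86 ± 0.44 (SE; edgeR, adjusted p = 2.53e-05). SLC7A1, a transporter of cationic amino acids, had 294 and 267 CPM against 104 and 104.1 CPM, a log2 difference of 1.43 ± 0.33 (edgeR, adjusted p = 0.00478). The libraries of SLC7A1 were tight within each group, whereas those of SLC6A9 were spread, with fed A and untreated A the higher of each pair. SLC7A5, which carries large neutral amino acids and whose tags were partly divided among transcripts, had 282 and 196 CPM against 145 and 74.8 CPM (log2 difference 1.12, edgeR adjusted p = 0.0407). Among 16 synthesis genes, with a list median of 0.44, only GPT2 passed the test (background 3.85%). GPT2, the mitochondrial alanine aminotransferase, had 118 and 97.0 CPM against 45.8 and 43.1 CPM (log2 difference 1.27, edgeR adjusted p = 0.00953). ASNS, asparagine synthetase and a textbook ATF4 target, had 354 and 187 CPM against 205 and 126 CPM, so that the groups overlapped (log2 difference 0.70 ± 0.37, edgeR adjusted p = 0.262). The serine pathway genes PHGDH (0.42, adjusted p = 0.577), PSAT1 (0.46, adjusted p = 0.461) and PSPH (1.11, adjusted p = 0.062) did not pass either. Without fed A the calls of SLC7A1 (edgeR adjusted p = 0.0619), SLC7A5 (0.421) and GPT2 (0.184) were lost, and that of SLC7A5 also without untreated B (0.358), while SLC6A9 kept its call in all 4 fits.

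Stress effectors downstream of ATF4 and CHOP gave 6 increases among 19 genes (background 3.85%), with a median difference of 0.34. CHAC1 (NM_024111), an enzyme that degrades glutathione, had 53.2 and 57.7 CPM in the fed and 13.9 and 6.12 CPM in the untreated libraries, a log2 difference of 2.44 ± 0.40 (SE; edgeR, adjusted p = 6.99e-05). STC2, a secreted glycoprotein, had 272 and 208 CPM against 66.5 and 28.8 CPM, a log2 difference of 2.32 ± 0.38 (edgeR, adjusted p = 6.99e-05). Both fed libraries were well above both untreated libraries in these genes, and untreated B was the lowest. SESN2, a leucine-sensing inhibitor of mTORC1 whose tags were partly divided among transcripts, had 252 and 185 CPM against 78.9 and 59.4 CPM (log2 difference 1.66, edgeR adjusted p = 0.00157). DDIT4, another inhibitor of mTORC1, had 333 and 223 CPM against 107 and 61.8 CPM (log2 difference 1.72, edgeR adjusted p = 0.00337). TSC22D3, known also as a glucocorticoid-induced leucine zipper, had 377 and 234 CPM against 107 and 115 CPM (log2 difference 1.46, edgeR adjusted p = 0.00607). In all 3 of these genes fed A exceeded fed B, and both fed libraries lay above both untreated ones. TXNIP, the inhibitor of thioredoxin, had 17.6 and 9.80 CPM against 3.98 and 4.79 CPM (log2 difference 1.63, edgeR adjusted p = 0.0258). PPP1R15A, the GADD34 subunit that brings a phosphatase to eIF2alpha, had a log2 difference of 0.77 and was not called (adjusted p = 0.159). CHAC1, STC2 and SESN2 kept the call with any library left out, whereas without fed A it was lost for DDIT4 (edgeR adjusted p = 0.0521), TSC22D3 (0.216) and TXNIP (0.47), and without untreated B for DDIT4 (0.0602).

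At the upstream and charging ends of the response no gene rose. None of the 8 genes listed as eIF2alpha kinases and phosphatases was called, and their median difference was -0.33. The 8 include EIF2S1, which encodes eIF2alpha itself, and EIF2B5, a subunit of its exchange factor. EIF2AK4, the kinase GCN2 that senses uncharged transfer RNA, had a log2 difference of -1.02 with split tags (edgeR, adjusted p = 0.0774). Of the 19 aminoacyl-tRNA synthetases, 3 fell (background 3.69%), RARS1 and FARSB among them, and none rose, with a list median of -0.30. RARS1, for arginine, had 51.5 and 59.7 CPM in the fed and 93.8 and 166 CPM in the untreated libraries (log2 difference -1.22, edgeR adjusted p = 0.0187). FARSB, a subunit of the phenylalanine enzyme, had 31.3 and 34.1 CPM against 62.6 and 94.8 CPM (log2 difference -1.26, edgeR adjusted p = 0.0127). In both of these the untreated libraries were further apart than the fed. Both calls were lost without fed A (edgeR adjusted p of 0.227 for RARS1 and 0.182 for FARSB), without fed B (0.0723 and 0.0768) and without untreated B (0.222 and 0.0963).

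Promoters of the response genes were read from the RefSeq table (GRCh38.p14) as the 250 bases before each start, and searched on both strands for the letters TGATGNAA, the composite C/EBP-ATF element through which ATF4 acts. 11 of 71 genes of the list with a promoter in the table held it (15.5%), against 119 of 9256 named tested genes (1.29%) and 3.19% of all 27305 promoters. Only CHAC1 of the 14 genes that rose and had a promoter held it, while 10 carriers, ASNS among them, did not pass the test upwards. The 2 promoters are shown because the same letters stand before a gene that rose and a gene that was not called, with the element in capitals and 5′ to 3′ on the gene's strand. CHAC1 lies at chr15:40953221-40953470 on the plus strand, its element 209 to 202 bases before the start in reverse orientation, and ASNS lies at chr7:97872409-97872658 on the minus strand, its element 68 to 61 bases before the start.
CHAC1: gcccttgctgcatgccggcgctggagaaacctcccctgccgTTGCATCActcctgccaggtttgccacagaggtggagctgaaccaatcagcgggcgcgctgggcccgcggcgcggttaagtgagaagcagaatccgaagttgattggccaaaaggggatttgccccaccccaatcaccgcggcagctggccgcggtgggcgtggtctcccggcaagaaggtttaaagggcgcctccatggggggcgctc
ASNS: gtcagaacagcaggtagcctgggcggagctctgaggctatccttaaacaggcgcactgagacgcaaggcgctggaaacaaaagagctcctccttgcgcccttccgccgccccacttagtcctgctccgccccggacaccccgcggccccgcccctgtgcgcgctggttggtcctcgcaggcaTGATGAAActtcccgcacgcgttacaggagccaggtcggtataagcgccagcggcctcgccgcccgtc
A match is a string of letters and not a measured binding site. A missing match says only that these exact letters are not in the 250 bases searched.

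**Figure D2:**
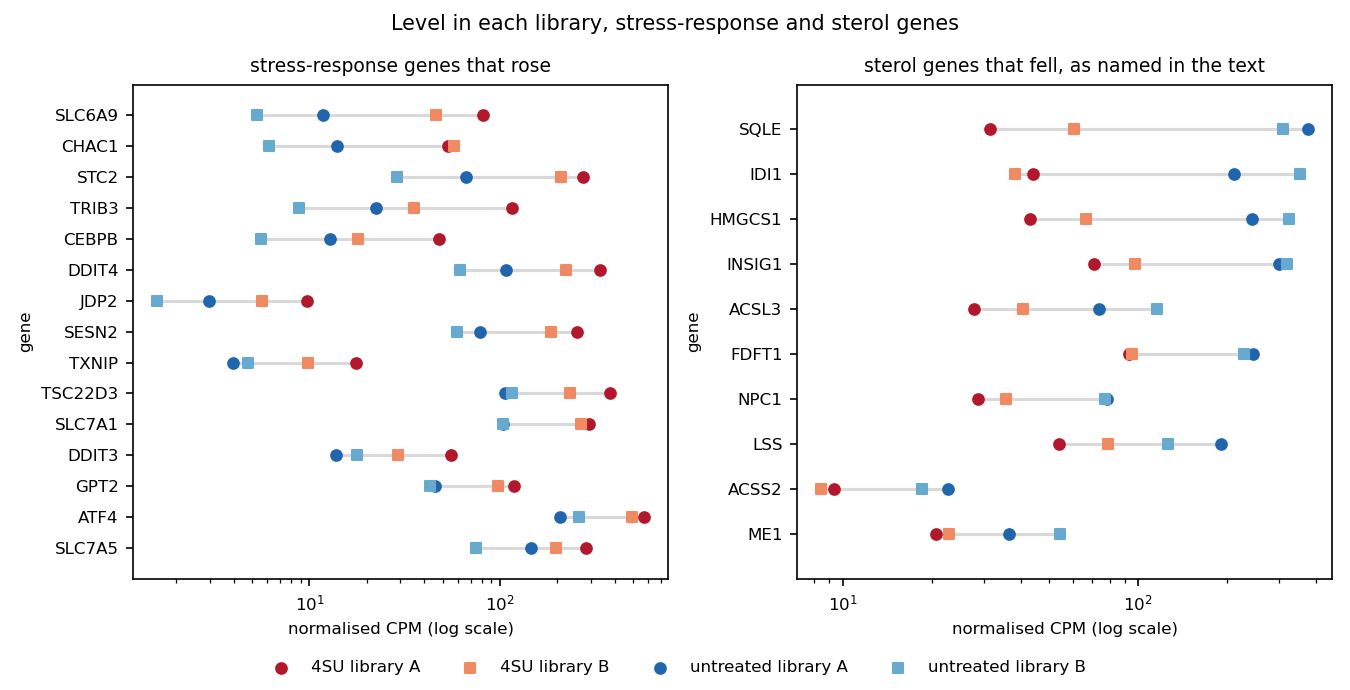
Normalised CPM (log scale, horizontal) of genes of the integrated stress response that rose and of the sterol genes named in the text that fell, 1 point per library, in reds for the fed and blues for the untreated, with circles for A and squares for B. Stress genes sit to the right in the fed libraries, with STC2 at 272 and 208 CPM against 66.5 and 28.8 CPM, and sterol genes to the left, with SQLE at 31.6 and 60.5 CPM against 374 and 309 CPM.

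Genes of cholesterol synthesis and its control moved the other way. Of 48 tested genes 11 fell (background 3.69%) and 0 rose (background 3.85%), with 36 negative differences and a list median of -0.55 on the log2 scale. The list median was -0.48 without fed A, -0.70 without fed B, -0.72 without untreated A and -0.45 without untreated B. Fewer of its genes were called lower without fed A and more without untreated A, as was so over all tested genes. When scaled by library totals alone 7 fell, where 236 of all tested genes did.

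The mevalonate pathway, from acetyl-CoA to squalene epoxide, gave 5 decreases among 10 genes (background 3.69%), with a median difference of -1.0. HMGCS1, the synthase that opens the pathway, had 42.9 and 66.7 CPM in the fed and 242 and 325 CPM in the untreated libraries, a log2 difference of -2.36 ± 0.35 (SE; edgeR, adjusted p = 1.86e-05). IDI1 (NM_004508), the isopentenyl diphosphate isomerase, had 44.1 and 38.4 CPM against 211 and 353 CPM, a log2 difference of -2.77 ± 0.35 (edgeR, adjusted p = 1.35e-06). No fed library of these enzymes reached the lower untreated one. FDFT1, squalene synthase, had 93.0 and 95.5 CPM against 243 and 227 CPM (log2 difference -1.32, edgeR adjusted p = 0.0128). SQLE (NM_003129), the squalene epoxidase that forms a later control point, had 31.6 and 60.5 CPM against 374 and 309 CPM, a log2 difference of -2.88 ± 0.38 (edgeR, adjusted p = 2.23e-06). Fed A was the lowest library in HMGCS1, FDFT1 and SQLE. FDPS, which makes farnesyl diphosphate, had 141 and 132 CPM against 182 and 165 CPM and was not called (log2 difference -0.35, edgeR adjusted p = 0.625). Neither was MVK, mevalonate kinase, at a log2 difference of 0.23 (adjusted p = 0.793). HMGCS1, IDI1 and SQLE were called with any library left out, while FDFT1 was not without fed A (edgeR adjusted p = 0.145) or fed B (0.0791).

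Of 11 genes for the later steps from squalene epoxide to cholesterol only LSS, lanosterol synthase, fell (background 3.69%). LSS had 54.0 and 78.8 CPM in the fed and 190.0 and 126 CPM in the untreated libraries, a log2 difference of -1.25 ± 0.36 (SE; edgeR, adjusted p = 0.0225), and its call was lost without fed A (0.324) or untreated A (0.0726). DHCR7, a reductase at the end of the pathway, had a log2 difference of 0.00 (edgeR, adjusted p = 0.999). It stood at 88.2 and 93.1 CPM against 105 and 76.4 CPM, with the fed libraries between the untreated ones. MSMO1 (-1.10, adjusted p = 0.0671) and NSDHL (-0.75, adjusted p = 0.157), which remove methyl groups from lanosterol, did not pass the edgeR threshold, and tags of MSMO1 were partly divided among transcripts.

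Among 14 genes for sterol sensing and uptake, INSIG1 and NPC1 fell (background 3.69%). INSIG1 (NM_005542), which retains SCAP in the endoplasmic reticulum and is itself a target of SREBP, had 70.8 and 97.2 CPM in the fed and 300.2 and 319 CPM in the untreated libraries, a log2 difference of -1.88 ± 0.34 (SE; edgeR, adjusted p = 0.000303). NPC1, which exports cholesterol from lysosomes, had 28.7 and 35.6 CPM against 78.5 and 77.2 CPM (log2 difference -1.27, edgeR adjusted p = 0.0127). The untreated libraries of both genes lay close together, and the fed ones lay below them. Messages of the regulators themselves were not called, SREBF2 at -0.20 (adjusted p = 0.789) and SREBF1 at 0.99 (adjusted p = 0.0631). The call of NPC1 was lost without fed A (edgeR adjusted p = 0.229) or fed B (0.0561), while INSIG1 kept its call in all 4 fits.

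3 of 13 lipogenic genes fell (background 3.69%), with a median of -0.63. ACSL3, an acyl-CoA synthetase, had 27.9 and 40.9 CPM in the fed and 73.9 and 116 CPM in the untreated libraries (log2 difference -1.46, edgeR adjusted p = 0.00494). ACSS2, which makes cytosolic acetyl-CoA from acetate, had 9.38 and 8.48 CPM against 22.7 and 18.6 CPM (log2 difference -1.22, edgeR adjusted p = 0.0394). ME1, the malic enzyme that supplies NADPH, had 20.8 and 23.0 CPM against 36.7 and 54.3 CPM (log2 difference -1.05, edgeR adjusted p = 0.0439). Groups did not overlap in any of the 3. ACLY (-1.15, adjusted p = 0.055), FASN (-0.79, adjusted p = 0.293, split tags) and SCD (-0.48, adjusted p = 0.513), the main enzymes of fatty acid synthesis, had negative differences that did not pass the edgeR threshold. All 3 calls were lost without fed A (edgeR adjusted p of 0.171 for ACSL3, 0.241 for ACSS2 and 0.363 for ME1), and those of ACSS2 (0.232) and ME1 (0.168) without fed B, ME1 also without untreated B (0.224). Of 7 genes for sterol efflux that answer to LXR receptors, APOE rose (background 3.85%). Its level went from 24.1 and 11.5 CPM to 42.9 and 40.1 CPM (log2 difference 1.21, edgeR adjusted p = 0.032). The call of APOE was lost without fed A, fed B or untreated B.

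The upstream 250 bases of sterol genes were searched for the sterol regulatory element as TCACNCCAC and for the CCAAT box, both strands. The first was found in SREBF2 alone among 40 promoters (2.5%, against 0.875% of all promoters), and in none of the 8 genes that fell and had a promoter in the table. CCAAT occurred in 23 of the 40 (57.5%), in 5 of those 8 (62.5%), in 35.8% of named tested genes and in 33% of all promoters. The promoters below are shown because HMGCS1, INSIG1 and IDI1 fell in every fit and differ in these letters, and because SREBF2, not called, holds both; matches are in capitals, 5′ to 3′ on the gene's strand. HMGCS1 lies at chr5:43313413-43313662 on the minus strand with CCAAT in reverse orientation 155 to 151 and 100 to 96 bases before the start. INSIG1 lies at chr7:155297628-155297877 on the plus strand with CCAAT in reverse orientation 170 to 166 bases before it, and IDI1 at chr10:1056705-1056954 on the minus strand with no match. SREBF2 lies at chr22:41832855-41833104 on the plus strand, with the sterol element 133 to 125 bases before the start and CCAAT in reverse orientation 106 to 102 bases before it.
HMGCS1: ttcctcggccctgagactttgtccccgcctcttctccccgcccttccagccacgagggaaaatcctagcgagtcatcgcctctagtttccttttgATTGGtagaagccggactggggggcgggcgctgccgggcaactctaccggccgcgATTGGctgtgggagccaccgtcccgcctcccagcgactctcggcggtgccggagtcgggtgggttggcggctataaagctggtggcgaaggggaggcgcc
INSIG1: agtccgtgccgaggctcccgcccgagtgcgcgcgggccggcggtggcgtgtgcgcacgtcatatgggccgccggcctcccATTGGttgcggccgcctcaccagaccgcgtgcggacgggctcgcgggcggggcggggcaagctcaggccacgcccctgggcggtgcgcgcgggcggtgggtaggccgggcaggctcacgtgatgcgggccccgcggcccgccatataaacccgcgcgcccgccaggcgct
IDI1: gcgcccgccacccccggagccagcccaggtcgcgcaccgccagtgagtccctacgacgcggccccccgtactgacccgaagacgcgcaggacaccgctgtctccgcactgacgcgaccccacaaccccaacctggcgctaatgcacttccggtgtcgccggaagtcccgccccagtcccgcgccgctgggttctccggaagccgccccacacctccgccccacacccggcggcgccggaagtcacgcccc
SREBF2: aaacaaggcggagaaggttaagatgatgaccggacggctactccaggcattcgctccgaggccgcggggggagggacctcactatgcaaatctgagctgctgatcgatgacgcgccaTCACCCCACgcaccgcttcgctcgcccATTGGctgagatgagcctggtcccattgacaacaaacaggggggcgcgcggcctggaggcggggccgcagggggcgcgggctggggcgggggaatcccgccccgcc
Absence of a match says only that these letters are not in this window.

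**Figure D3:**
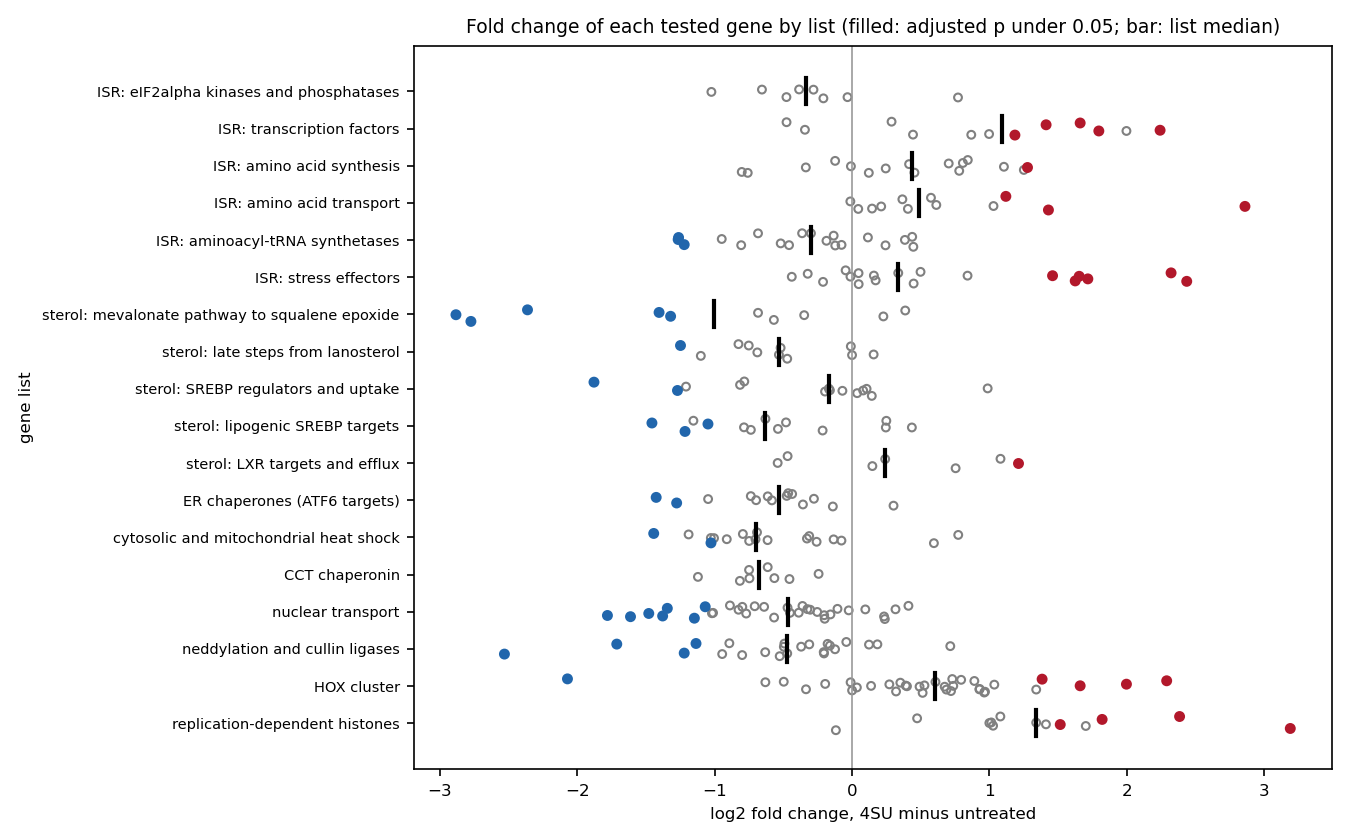
Log2 fold change (fed minus untreated, horizontal) of each tested gene by list, with filled points for genes called at an adjusted p under 0.05 and a bar at each list median. The medians lie at 1.09 for the list of stress transcription factors (with TRIB3), -0.30 for the aminoacyl-tRNA synthetases and -1.0 for the mevalonate pathway.

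Outside these 2 programmes, the largest decreases above the median level were VRK1 and NAE1. VRK1, a nuclear kinase of chromatin and cell division, had 10.5 and 15.1 CPM in the fed and 57.0 and 108 CPM in the untreated libraries, a log2 difference of -2.67 ± 0.38 (SE; edgeR, adjusted p = 8e-06). NAE1, a subunit of the enzyme that activates NEDD8, had 14.8 and 18.5 CPM against 63.1 and 131 CPM, a log2 difference of -2.53 ± 0.36 (edgeR, adjusted p = 9.85e-06). SLC30A9, a mitochondrial zinc transporter, had 11.4 and 16.02 CPM against 41.2 and 84.9 CPM (log2 difference -2.18, edgeR adjusted p = 0.00015). In all 3 untreated B exceeded untreated A, and both fed libraries lay below both. HOXA13, a homeobox factor of posterior identity, had 10.2 and 11.5 CPM against 42.4 and 49.5 CPM (log2 difference -2.07, edgeR adjusted p = 0.000288). TLCD1, a membrane protein that limits long unsaturated phospholipids, had 12.5 and 9.61 CPM against 59.2 and 31.9 CPM (log2 difference -2.06, edgeR adjusted p = 0.00017). Each of these 5 genes kept the call with any library left out. Among genes at or below the median level, MAFA, a transcription factor of insulin-producing cells, had 0 and 2 tags in the fed and 14 and 11 in the untreated libraries, a 12.6-fold ratio downwards with an exact 95% counting interval from 3.13 to 109.5, and its call was lost without fed A (edgeR adjusted p = 0.241) or fed B (0.0553).

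Of 31 tested genes for RNA polymerase II, elongation and Mediator, 1 rose and 1 fell, near the background of 3.85% and 3.69%, with a median of 0.11. HEXIM1, the member that fell, which holds the elongation kinase P-TEFb inactive within the 7SK complex, had 91.9 and 150.4 CPM in the fed and 491 and 467 CPM in the untreated libraries, a log2 difference of -1.98 ± 0.36 (SE; edgeR, adjusted p = 0.000333), and kept the call in all 4 fits. BRD2, a reader of acetylated histones that is named for its level, had 467 and 527 CPM against 1124 and 1615 CPM (log2 difference -1.46, edgeR adjusted p = 0.0146). MYC, a growth-promoting transcription factor, had 124 and 113 CPM against 218 and 326 CPM (log2 difference -1.20, edgeR adjusted p = 0.0185). In BRD2 and MYC the fed libraries lay close together and the untreated ones apart. The calls were lost without fed A (0.173 for BRD2, 0.144 for MYC), fed B (0.0645 and 0.141) and untreated B (0.103 and 0.141).

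Genes of the G1 to S transition gave 3 decreases (background 3.69%) and 1 increase (background 3.85%) among 32 tested, with a median of -0.08. CCNE1, cyclin E1, had 15.9 and 19.6 CPM in the fed and 56.4 and 53.5 CPM in the untreated libraries (log2 difference -1.62, edgeR adjusted p = 0.00149). CDC6, which loads the replicative helicase and had split tags, stood at 52.6 and 65.0 CPM against 128 and 178 CPM (log2 difference -1.38, edgeR adjusted p = 0.00578), and CDC45, a subunit of the active helicase, at 24.7 and 33.5 CPM against 64.9 and 71.1 CPM (log2 difference -1.22, edgeR adjusted p = 0.0161). In all 3 the groups did not overlap, and fed A was the lowest library. E2F2, with split tags, rose from 21.5 and 19.2 CPM to 60.9 and 52.8 CPM (log2 difference 1.48, edgeR adjusted p = 0.00506). Without fed A none of the 4 was called (edgeR adjusted p of 0.0768 for CCNE1, 0.158 for CDC6, 0.31 for CDC45 and 0.113 for E2F2), and without fed B CDC45 was not (0.0532).

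Against a background of 3.85% higher and 3.69% lower, 2 of 23 tested Notch and Hedgehog genes rose and 3 fell. Of 30 TGF-beta and BMP genes 3 rose and 2 fell, and none of 33 Wnt genes was called. Differences were positive in 13 of the 23 (median 0.14), 20 of the 30 (median 0.12) and 16 of the 33 (median -0.02). The largest increase was 2.38 among Notch and Hedgehog genes, and 3.49, for AMH, among TGF-beta and BMP genes. In the Notch pathway, LFNG, a glycosyltransferase that tunes the receptor, had 1.14 and 1.88 CPM in the fed and 12.2 and 12.8 CPM in the untreated libraries (log2 difference -2.96, edgeR adjusted p = 0.000238). The Notch targets HEY1 and NRARP fell as well. HEY1 had 9.10 and 15.8 CPM against 30.5 and 46.3 CPM (log2 difference -1.60, edgeR adjusted p = 0.00824) and NRARP 20.2 and 24.9 CPM against 48.8 and 58.3 CPM (log2 difference -1.24, edgeR adjusted p = 0.0169). GLI2, a transcription factor of the Hedgehog pathway, rose from 1.99 and 3.99 CPM to 7.68 and 14.3 CPM (log2 difference 1.92, edgeR adjusted p = 0.0115). Of the inhibitors of DNA binding, which BMP signalling induces, ID4 had 60.9 and 60.7 CPM against 158 and 201 CPM (log2 difference -1.56, edgeR adjusted p = 0.00165) and ID2 33.6 and 40.5 CPM against 68.7 and 92.6 CPM (log2 difference -1.12, edgeR adjusted p = 0.025). LFNG and ID4 were called in all 4 fits. Without fed A, HEY1 (edgeR adjusted p = 0.22), NRARP (0.273) and ID2 (0.325) were not, and without fed B, NRARP (0.0755), GLI2 (0.274) and ID2 (0.0951) were not, nor ID2 without untreated B (0.108).

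Of 26 tested genes for sodium, calcium and chloride transport and its regulators, 1 rose and 2 fell, near the background of 3.85% and 3.69%, with a median of -0.13. The 3 called genes are known as members of 1 cascade. The list was chosen with earlier results of these data known, so their falling in 1 cascade is not a result. WNK4 rose, as given above with 114 and 115 CPM in the fed libraries, whereas STK39 and SLC12A2 fell. STK39, the SPAK kinase that WNK kinases activate, had 5.12 and 7.91 CPM against 18.3 and 28.5 CPM in the untreated libraries (log2 difference -1.81, edgeR adjusted p = 0.00365), a call lost without fed A (0.134). SLC12A2, the NKCC1 sodium, potassium and chloride cotransporter that SPAK phosphorylates, had 17.9 and 19.2 CPM against 63.7 and 95.3 CPM (log2 difference -2.09, edgeR adjusted p = 8.7e-05), with split tags, and kept its call with any library left out.

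Protein folding, nuclear transport and protein modifier genes gave decreases and no increase, and each count below is to be read against the 3.69% of all tested genes that fell. Median GC content of transcripts was 42.14% for nuclear transport, 41.69% for neddylation, 44.35% for CCT, 47.28% for endoplasmic reticulum chaperones and 50.21% for heat shock genes. Among all tested genes from 41.56 to 46.58% GC, 6.49% fell, with a median of -0.26. The part of GC content in these counts was not tested further. 2 of 18 heat shock genes and 2 of 14 endoplasmic reticulum chaperone genes fell, with medians of -0.70 and -0.53, and 0 of 8 subunits of the CCT folding ring was called although all 8 had negative differences (median -0.68). HSPA1B, an inducible HSP70, had 445 and 354 CPM in the fed and 1287 and 886 CPM in the untreated libraries (log2 difference -1.44, edgeR adjusted p = 0.0282), a call lost without fed A (0.0768), fed B (0.134) or untreated A (0.0671). HSPA5, the chaperone BiP and a target of the unfolded protein response, had 143 and 215 CPM against 407 and 460 CPM (log2 difference -1.28, edgeR adjusted p = 0.02, split tags), lost without fed A (0.363) or untreated B (0.0702). MANF, secreted under stress of the same compartment, had 39.5 and 45.4 CPM against 105 and 123 CPM (log2 difference -1.43, edgeR adjusted p = 0.00768), lost without fed A (0.137). These chaperones were lower in the same libraries in which DDIT3 and TRIB3 were higher. 7 of 33 nuclear transport genes fell, with a median of -0.47. CSE1L, the exporter of importin alpha, had 104 and 118 CPM against 290.2 and 474 CPM (log2 difference -1.78, edgeR adjusted p = 0.00129) and kept its call in all 4 fits. The median of the nuclear transport list was -0.47 without fed A, -0.61 without fed B, -0.77 without untreated A and -0.11 without untreated B. Fewer of its genes were called lower without fed A and more without untreated A, as was so over all tested genes. Of 23 neddylation genes 4 fell, NAE1 and its catalytic partner UBA3 among them. UBA3 had 14.2 and 8.29 CPM against 28.7 and 44.5 CPM (log2 difference -1.71, edgeR adjusted p = 0.00337), a call lost without fed B (0.122).

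Homeobox genes of the HOX clusters gave 4 increases (background 3.85%) and 1 decrease (background 3.69%) among 35 tested, with 29 positive differences and a median of 0.61. HOXD3 rose from 1.79 and 3.19 CPM to 12.5 and 11.7 CPM (log2 difference 2.29, edgeR adjusted p = 0.00256) and HOXB13, with split tags, from 2.99 and 3.46 CPM to 13.1 and 12.8 CPM (log2 difference 2.0, edgeR adjusted p = 0.00506). HOXB8 and HOXB2 rose by 1.66 and 1.39 on the log2 scale, and HOXA13 was the member that fell, as described above. Without fed A the calls of HOXB8 (edgeR adjusted p = 0.209) and HOXB2 (0.205) were lost, as they were without untreated B (0.0525 and 0.106), and HOXB8 also without fed B (0.0539). Base composition moved with fold changes over all genes, and its values follow.

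The fold change of a gene moved with the GC content of its transcript. In 5 equal bins of GC content, with medians of 38.98, 43.93, 49.73, 56.18 and 62.46%, the median log2 difference was -0.39, -0.26, -0.04, 0.20 and 0.34. The number of genes that rose went from 4 in the lowest bin through 19, 46 and 113 to 186 in the highest, and the number that fell from 186 through 133, 69 and 29 to 12. Spearman's rho between fold change and GC content across genes, which are not independent replicates, was 0.43, and -0.19 with transcript length. With U content of the transcript it was -0.39. From the lowest to the highest of 5 bins of U content, the share called higher went from 8.69% to 0.24%, and the share called lower from 0.73% to 7.37%. Along U content, rho was -0.61 for untreated A minus untreated B and -0.01 for fed A minus fed B. The untreated libraries also differed from each other along GC content, with a rho of 0.73 for untreated A minus untreated B, against 0.07 for fed A minus fed B. Along transcript length both pairs differed, with a rho of -0.50 for fed A minus fed B and -0.41 for untreated A minus untreated B. When a trend on length and GC content was removed from each library, 362 of the 368 genes that rose and were tested there were still called, as were 400 of 429 that fell, and none had changed sign. The integrated stress response then gave 22 increases and 5 decreases among 80 genes, and the sterol list 1 increase and 16 decreases among 43. Calls grew over all genes as well. On genes with a base composition, 467 were higher and 461 lower without this correction, and 811 and 863 with it. Whether base composition took part in any single change was not tested further.

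**Figure D4:**
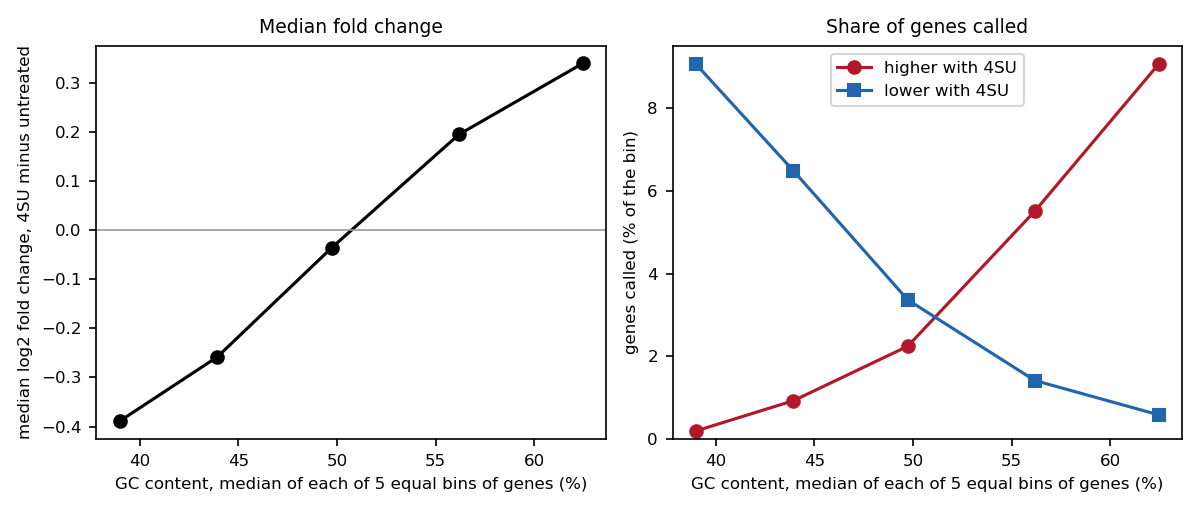
Median log2 fold change (fed minus untreated, left) and share of genes called (right, in percent) in 5 equal bins of tested genes by GC content of the transcript, placed at the median GC content of each bin. The median runs from -0.39 at 38.98% GC to 0.34 at 62.46% GC, and the genes that rose and those that fell lie at opposite ends.

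Some called genes lay next to each other in RefSeq order, which is given as counts without a test. 61 of the 397 named genes that rose (15.4%) had a neighbour that also rose. Counted by position, 66 of the 792 neighbours (8.33%) of genes that rose were called higher, against 3.54% of all named tested genes. Of the named genes that fell, 55 of 472 (11.7%) had a neighbour that fell, and 56 of 943 neighbours (5.94%) were called lower, against 4.21%. These counts include pairs whose gene spans overlap, 5 of the 33 pairs that rose and 1 of the 28 that fell. P2RY11, with tags partly divided among transcripts, and PPAN-P2RY11 form 1 of the 5, so such a pair is uncertain as 2 observations. AOC2 and AOC3, adjacent amine oxidase genes of similar sequence, gave log2 differences of 3.60 and 3.70 with nearly the same levels in every library (46.4 and 49.9 CPM against 4.58 and 3.19 CPM for AOC2, 47.5 and 47.7 CPM against 3.79 and 3.46 CPM for AOC3). Tags of such paralogues can be exchanged by the counting, so the pair is uncertain as 2 observations. FARSB and ACSL3, which are neighbours with unrelated sequence, fell by 1.26 and 1.46 on the log2 scale. Neighbours share base composition, and its part in these counts was not tested.

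The study holds a second pair of fed and unfed groups, in which cells fed 4SU and irradiated at 365 nm stand against cells irradiated at 254 nm without 4SU; 4SU and wavelength cannot be told apart there. It shares no library with the comparison above, although both come from 1 fit and so share its estimate of the spread. The irradiated libraries also held shorter transcripts, with tag-weighted median lengths of 1147 and 1431 nucleotides with 4SU and 365 nm and 1534 and 1305 with 254 nm, against 2373 and 2850 (fed) and 2666 and 3029 (untreated) without crosslinking, and the part of this in the values below was not tested. Of the 528 genes that rose, 379 (71.8%) had a positive difference in that pair, against 46.6% of all tested genes. Of the same 528, 69 (13.1%) were called higher there, near the background of 15.2%, and 7 were called lower, against a background of 12.5%. Of the 507 that fell, 283 (55.8%) had a negative difference and 120 (23.7%) were called lower, against a background of 12.5%. In the opposite direction, 105 of the 507 were called higher, against a background of 15.2%. With 46.6% of all tested genes positive in that pair, a negative sign was the more common in general, so the share of negative signs among genes that fell lies near the background. The difference between the 2 contrasts was tested after these data had been seen: it passed for 2345 of all genes (17.1%), for 114 of those that rose (21.59%) and for 208 of those that fell (41.03%).

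**Figure D5:**
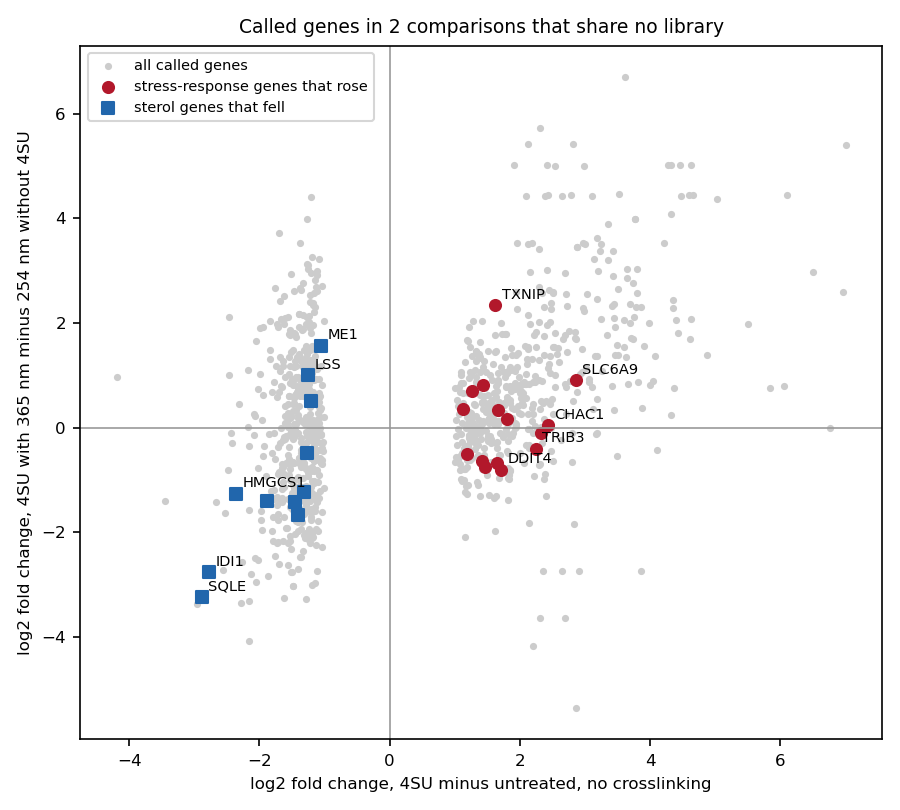
Log2 fold change of genes called in the unirradiated comparison (horizontal, fed minus untreated) against their log2 fold change between 4SU with 365 nm and 254 nm without 4SU (vertical), in libraries that are not shared. SQLE and IDI1 lie at the lower left, at -3.24 and -2.75 on the vertical scale, whereas CHAC1 lies near 0 on it, at 0.05.

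As whole lists, the stress and sterol genes had near-equal medians in this second pair, at -0.06 and -0.07 on the log2 scale, while the genes called without crosslinking gave different counts. None of the 15 stress genes that rose without crosslinking was called higher there (background 15.2%), and 8 had a positive difference. For 9 the test of the difference between contrasts passed (background 17.1%). CHAC1 had 0.05 on the log2 scale (edgeR, adjusted p = 0.953; difference between contrasts, adjusted p = 0.00282), STC2 had -0.10 (0.884; 0.0014) and DDIT3 -0.63 (difference between contrasts, 0.00571). SLC6A9 had 0.91 (adjusted p = 0.218; difference, 0.0434). Among the 11 sterol genes that fell, 7 were called lower there too (background 12.5%). All 5 genes of the mevalonate pathway were among these, and its 10 genes had a median of -1.24 in that pair. SQLE had -3.24 (edgeR, adjusted p = 2.09e-07; difference between contrasts, 0.699), IDI1 -2.75 (8.3e-07; 0.986), HMGCS1 -1.26 (0.0114; 0.13), FDFT1 -1.23 (0.00711; 0.917) and INSIG1 -1.40 (0.00263; 0.526). LSS went the other way there, at 1.00 (edgeR, adjusted p = 0.0326; difference, 0.00141), as did ME1 at 1.57 (difference, 0.000138), and the lipogenic list had a median of 0.79.

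Other genes described above divided likewise. WNK4 was called higher in both pairs, at 2.30 in the second (edgeR, adjusted p = 0.00067), as were KCND1 (2.12, adjusted p = 0.00407) and AMH (1.58, adjusted p = 0.000878), the last by less than in the unirradiated cells (difference, 0.00627). SLC12A2, which fell without crosslinking, was not called in the second pair (0.27, edgeR adjusted p = 0.684). Lower in both were LFNG (-3.38, adjusted p = 0.00267), HEXIM1 (-1.75, 0.000462), HOXA13 (-2.48, 0.00101), VRK1 (-1.41, 0.00627) and NAE1 (-1.62, 0.00125). CCNE1, at -3.26, and MYC, at -3.01, were lower still in the second pair, and the difference between contrasts passed for both (edgeR, adjusted p = 0.0313 and 0.0103). SLC30A9, at 1.10 (adjusted p = 0.0297), and IPO5, an importin that fell by 1.38 without crosslinking, at 2.66, were higher in the second pair and lower in the first (difference, 2.11e-05 and 5.93e-07). The IPO5 call without crosslinking was lost without fed A (edgeR adjusted p = 0.233), fed B (0.0622) or untreated B (0.121), and those of CCNE1 (0.0768) and MYC (0.144) without fed A, MYC also without fed B (0.141) or untreated B (0.141).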

How the data were processed

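Polyadenylated RNA of HEK293 cells was measured as short sequence tags in 10 libraries. The deposited values are expected counts per transcript: per the file headers, each file lists tags assigned to transcripts, with transcript length, and tags that match several transcripts were divided among them, which left 14.3 to 15.9% of tags on transcripts with fractional counts in the 4 libraries compared. Which aligner, build or annotation was used is not given in the sources used here. Transcripts absent from a file were taken as 0 counts, and counts were rounded to whole numbers. Of 25005 transcripts, 15886 were named by the RefSeq table (GRCh38.p14) and 128 by a GENCODE name table alone, while 8991 stayed unnamed and, where they had enough tags, were tested and counted.

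edgeR 4.0.16 in R 4.3.3 (filterByExpr, TMM factors, quasi-likelihood fit, Benjamini-Hochberg adjustment over 13731 tested genes, threshold 0.05) was fitted over the 8 duplicate libraries in 4 groups, with a common biological coefficient of variation of 0.2441, 4 residual degrees of freedom and 39.99 prior ones. Each standard error is the size of the log2 difference over the root of its F statistic. The labels do not say that A and B are separate cultures, so a p-value here reflects only how far these libraries spread, and that spread may be technical. Counting error alone is covered by the exact 95% intervals of tag ratios and by the limit of 3 tags. Library correlations, fold changes by GC content and counts of neighbours are descriptions. The script was tested on simulated data.

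Genes were named by rule: the 15 largest increases and 15 largest decreases above the median level, 8 each at or below it, 8 each of highest level, any member of the stress and sterol lists, and up to 5 of each other list, called ones first. Not all are described, and a few genes of these lists are not reported here. The neighbours AOC2 and AOC3 are given as an example chosen after their values were seen. The members and all lists were chosen with earlier results of these data known, as was the test of the difference between contrasts. Alternatives were DESeq2 1.42.0, other scalings and filters, the compared groups alone, a replicate block, corrections for length and GC content, and each library left out.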

Additional observations from a re-analysis of the deposited data

How the results depend on the processing

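The counts of 528 genes higher and 507 lower moved with several choices. DESeq2 called 257 higher. Scaling by library totals left 236 lower, and fitting the compared groups alone left 279 lower. The length and GC correction, chosen after seeing the data, gave 811 higher and 863 lower, and 274 and 214 when fed A was also left out. Leaving out 1 library gave 188 to 1290 higher and 50 to 1397 lower, with the fewest without fed A and the most without untreated A, where the lone library is assumed to vary like the other groups. Stress genes that rose numbered 4 to 21 in these 4 fits, 6 and 23 with the length and GC correction less fed A or fed B, and sterol genes that fell numbered 4 to 14, and 7 with library totals. The share of called genes with the same sign in the 365 nm against 254 nm pair was 63.96%, with 53.22 to 82.77% when 1 library was left out, 54.34% with library totals, 60.78% on genes with a base composition, 59.92% with the length and GC correction, and 74.8 and 59.27% with that correction less fed A or untreated A.

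The letters A and B are shared by the groups, but nothing in the labels says that they pair libraries, and with 2 pairs the deviations of same-lettered libraries correlated at 0.346. With the letter as a replicate block, 862 genes were higher and 831 lower, and the same-sign share was 59.3%. With the block and the length and GC correction together these were 1219, 1202 and 57.37%, and 27 stress genes rose. Of 145 called genes whose values were recomputed, 97 lost the call in at least 1 fit that left out a library, 35 with DESeq2 and 39 with library totals, and none reversed under any alternative in which it was tested (130 of the 145 had a base composition). Totals of 2289523 to 3099769 tags limit genes of few tags.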
